A study of Mus musculus with 8 samples.

Results

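Il33 and its receptor gene Il1rl1 were followed through single cells of the mouse distal colonic mucosa. Both were taken by gene symbol, 2 of the 31053 genes in the deposited count matrix. The tissue came from 8 mice at 8 weeks of age. The 4 KO-labelled mice (mice 2, 3, 6 and 7) carried floxed Spry2 alleles and a Cre transgene driven by the Villin promoter, an intestinal epithelial driver. Littermates with floxed Spry2 and no Cre made up the WT-labelled group (mice 1, 4, 5 and 8), so both groups carried the floxed gene, and the driver does not target the stroma or leukocytes. Of 53080 cells, the 1316 that the authors named as doublets were set aside, leaving 51764 cells with names for class and, in part, subtype.

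IL-33 is a cytokine of the IL-1 family that is kept in the nucleus of barrier and stromal cells and is released when they are damaged. Its receptor ST2, encoded by Il1rl1, pairs with the accessory chain IL-1RAcP (Il1rap) and signals through MyD88, IRAK kinases and TRAF6. In the gut the receptor is known on group 2 innate lymphoid cells (ILC2), which answer with IL-5, IL-13 and amphiregulin, on a subset of regulatory T cells (Tregs) and on mast cells, and a soluble form made from the same gene can bind the cytokine.

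Totals ranged from 17037906 to 37300028 unique molecular identifiers (UMIs, counted molecules) per mouse, and medians from 1505 to 3355 UMIs per cell. WT-labelled mouse 8 stood apart in the stroma, with 188 fibroblasts, of which 21 were of the CD90-pos subtype. Of 52717 distinct cell barcodes, 356 occurred in more than 1 library. Spry2 itself was read at 10.4, 13.3, 15.7 and 49.3 CPM (UMIs of a gene per 1000000 UMIs of the same cells) in the epithelium of the KO-labelled mice and at 11.2, 17.6, 27.7 and 37.6 CPM in the WT-labelled mice. These ranges overlap, so the transcript does not check the labels, and where its 3′ tag lies relative to the deleted part is not given in the sources used here.

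Il33 (ENSMUSG00000024810) lies on the plus strand of chromosome 19, chr19:29925114-29960718 in mm10 (GENCODE M21), and was read with 4024 UMIs in 2375 cells. Il1rl1 (ENSMUSG00000026069) lies on the plus strand of chromosome 1, chr1:40429570-40465415, and was read with 884 UMIs in 413 cells. Each gene has 5 coding transcripts in that annotation. The counts are summed per gene, so transcripts for soluble and membrane-bound ST2 cannot be told apart. The 250 bases before the RefSeq starts of Il1rl1 (GRCm38.p6, plus strand) are shown because Gata3, the factor that defines ILC2, was read most strongly in the same cells as the receptor. Capitals mark matches on either strand to a GATA motif, searched as AGATAA and as AGATAG, and likewise as TGATAA and as TGATAG.

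Il1rl1, chr1:40429320-40429569: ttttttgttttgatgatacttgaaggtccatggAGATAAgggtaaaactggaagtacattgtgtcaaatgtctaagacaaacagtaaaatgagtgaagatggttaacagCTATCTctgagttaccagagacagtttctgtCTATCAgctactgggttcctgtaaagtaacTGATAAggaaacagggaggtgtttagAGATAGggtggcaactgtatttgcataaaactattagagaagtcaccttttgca
Il1rl1, chr1:40439379-40439628: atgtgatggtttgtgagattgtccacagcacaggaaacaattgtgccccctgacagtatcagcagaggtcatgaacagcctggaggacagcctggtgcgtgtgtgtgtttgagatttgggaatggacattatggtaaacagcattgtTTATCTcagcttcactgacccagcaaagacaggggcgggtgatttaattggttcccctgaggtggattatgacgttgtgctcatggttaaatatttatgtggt

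The upstream window of the first Il1rl1 start held 5 matches and that of the second held 1. Of 32851 RefSeq windows of the same length, 26.5% held at least 1 match, 6.40% at least 2 and 0.0426% at least 5. The windows before both Il33 starts (chr19:29924863-29925112 and chr19:29945540-29945789) held 0. A match is a string of letters and was not tested for binding.

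Il33 was a stromal transcript. It was read most strongly in CD90-pos fibroblasts, at 184 ± 39.9 CPM (SD, n = 8 mice), where 3516 UMIs lay in 1986 of 4424 cells (44.9%). In the WT-labelled mice 1, 4, 5 and 8 the level was 196, 165, 175 and 100.3 CPM, and in the KO-labelled mice 2, 3, 6 and 7 it was 214, 230.3, 183 and 206 CPM. Mouse 8 was the lowest, and its value rests on 2 UMIs in 21 cells. Without it the mean was 196 ± 23.0 CPM (SD, n = 7).

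Lymphatic endothelium, the lining of lymph vessels, was the other clear site of Il33, at 106 ± 57.3 CPM (SD, n = 7 mice with at least 20 cells). There 131 UMIs lay in 85 of 370 cells (23.0%, exact binomial 95% interval 18.8 to 27.6, which covers counting error only). Lymphatic markers summed to 31266 CPM in these cells and the 7 fibroblast markers to 839 CPM. Most of the fibroblast-marker UMIs were of Thy1, which was read in 204 of 285 lymphatic cells without Il33 and in 69 of 85 with it. Pdgfra, a defining fibroblast gene, was read in 1 of those 85 cells. The level was below that of CD90-pos fibroblasts in 6 of the 7 mice.

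The remaining stroma held far less Il33. Fibroblasts that the authors named MSCs had 27.3 ± 23.7 CPM (SD, n = 3 mice), and the CD90-pos, Igfbp3 subtype had 14.2 ± 9.79 CPM (SD, n = 7), with a UMI in 81 of 1667 cells. Blood endothelium gave 4 UMIs in 265 cells and SMA-pos myofibroblasts gave 1 UMI in 173 cells. Going down this order, the mean difference within mice exceeded its own SD between CD90-pos fibroblasts and lymphatics (7 mice with both types). It also did so between lymphatics and MSCs (3 mice) and between epithelium and SMA-pos myofibroblasts (3 mice). All other neighbours among the 18 types did not differ by more than their SD. The contrast of epithelium and myofibroblasts is near the floor. In the myofibroblasts 3 counts would come to 4.04 CPM, above the epithelial mean of 3.20 CPM over 8 mice, so it shows no clear difference.

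Leukocytes were nearly empty of Il33. No UMI was found in 503 ILC2, which allows up to 0.596% of cells with a UMI, or in 659 macrophages, which allows up to 0.455%. Mature B cells, which are not a known source, had 11 UMIs in 12834 cells (0.0857%) at a median of 1893 UMIs per cell. That share was taken as a reference for Il33, and stray RNA was not measured. Shares differed in other leukocytes, with 0 UMIs in 1247 memory T cells and 2 UMIs in 1299 inactive T cells (0.154%).

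**Figure D1:**
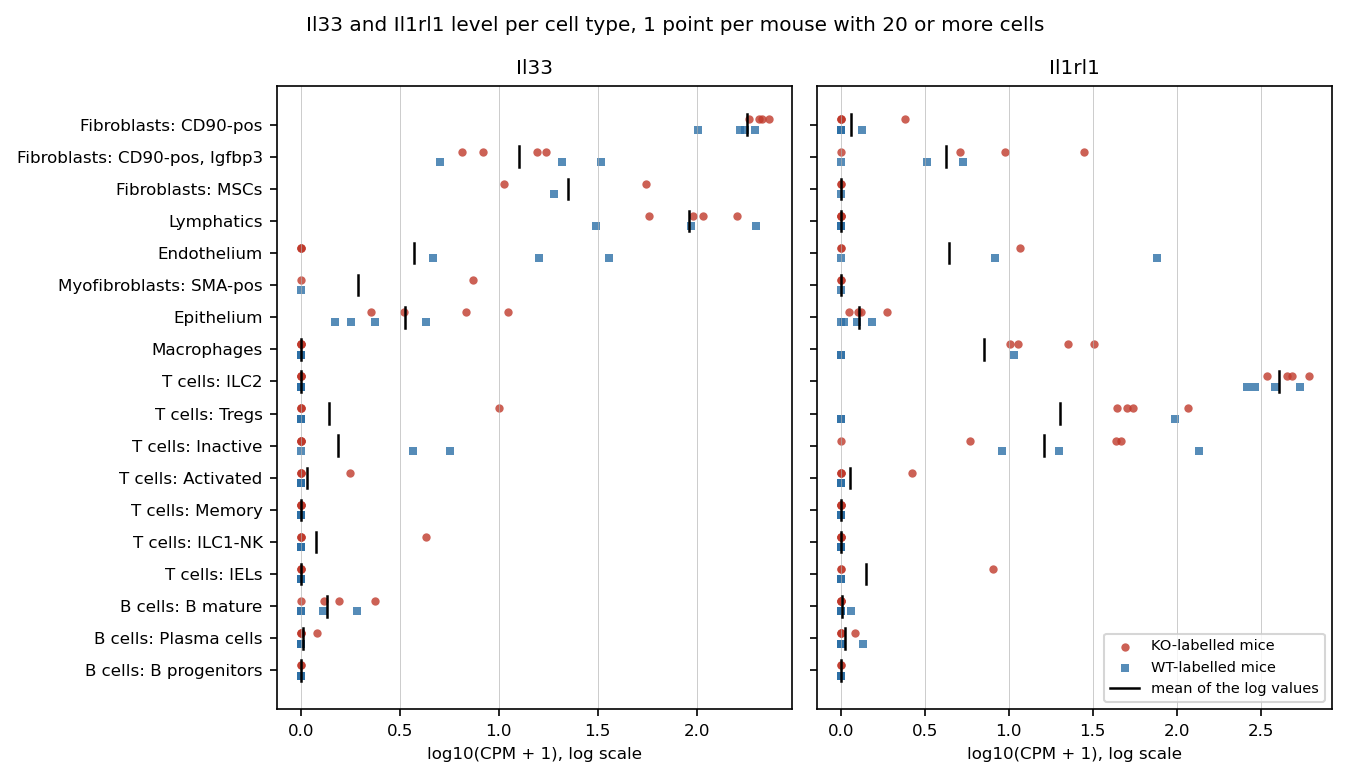
Level of Il33 (left) and Il1rl1 (right) in 18 cell types, as log10(CPM + 1) of the counts summed per mouse, with 1 point per mouse with 20 or more cells and a bar at the mean of the log values. Il33 is highest in CD90-pos fibroblasts and lymphatics, Il1rl1 in ILC2, and no type is high in both.

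Il1rl1 had a different set of cells. In ILC2 it reached 421 ± 122 CPM (SD, n = 8 mice), with 636 UMIs in 297 of 503 cells (59.0%, exact binomial 95% interval 54.6 to 63.4). The interval covers counting error only, and the share per mouse was 58.4 ± 10.2% (SD, n = 8). The WT-labelled mice 1, 4, 5 and 8 gave 385, 292, 542 and 261 CPM and the KO-labelled mice 2, 3, 6 and 7 gave 485, 606, 341 and 454 CPM. Every mouse had Il1rl1 in its ILC2, and the lowest was mouse 8. The reference in mature B cells was 1 UMI in 12834 cells.

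The ILC2 name was checked against its markers. Gata3 was at 826 ± 163 CPM (SD, n = 8), Il13 at 811 ± 729 CPM and Il5 at 228 ± 243 CPM. Areg, the tissue-repair ligand amphiregulin, was at 1302 ± 512 CPM, and Il17rb, the receptor for the tuft cell cytokine IL-25, was at 298 ± 158 CPM. Mast cell genes were also read among these cells: 8 of the 503 ILC2 carried at least 3 of 8 defining mast cell markers, and they held 23 of the 636 Il1rl1 UMIs. The receptor signal of ILC2 therefore lay almost wholly in cells without that profile.

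Tregs came next, at 51.1 ± 43.6 CPM (SD, n = 7 mice with at least 20 cells), below ILC2 in 7 of 7 mice. The 62 UMIs lay in 19 of 412 cells (4.61%). Mice 1, 4 and 5 of the WT-labelled group gave 96.1, 0 and 0 CPM, and the KO-labelled mice 2, 3, 6 and 7 gave 54.0, 115, 49.5 and 43.2 CPM. In mouse 3 all 12 UMIs came from 1 cell. WT-labelled mouse 8, with 19 Tregs, gave 220 CPM from 8 UMIs in 3 cells.

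The Tregs with an Il1rl1 UMI differed in their other transcripts from those without one, at similar depth (medians of 2089 and 2366 UMIs per cell). Foxp3, the lineage factor, was read in 47.4% of the 19 cells and in 23.2% of the other 393. Ikzf2, which encodes Helios, was read in 89.5% against 44.8%, Gata3 in 57.9% against 24.2%, and Areg in 47.4% against 16.5%. Il13 and Il5 were read in none of the 412 Tregs. The 19 cells came from 6 of the 8 mice. These are descriptions over cells, with no test, since the types were drawn from the same counts.

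Il1rl1 was also read in a small group of fibroblasts. All 61 UMIs of the CD90-pos, Igfbp3 subtype lay in the authors' cluster 28, in 17 of its 88 cells of that subtype, and the level over all 95 fibroblasts of the cluster was 145 CPM. Pdgfra was read in 17 of those 17 cells and in 69 of the other 71, while Thy1, the gene for CD90, had no UMI in any of the 88 cells, against the name of the subtype. No Il33 UMI was found in the cluster. By mouse, cluster 28 gave 10 Il1rl1 UMIs in 42 cells of WT-labelled mouse 5, 14 in 12 cells of KO-labelled mouse 6 and 34 in 30 cells of KO-labelled mouse 7. The other mice had at most 4 cells each.

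Macrophages gave 11.7 ± 11.2 CPM of Il1rl1 (SD, n = 7), with a UMI in 29 of 659 cells. Those 29 cells were deeper than the rest, with medians of 8262 against 5290 UMIs, and Ear2, an eosinophil-associated ribonuclease, was read in 55.2% of them against 9.84% of the others. The other 3 eosinophil markers, Siglecf, Prg2 and Epx, had 0 UMIs in the 29 cells, and Epx had 0 in all 659. None of the 659 carried 3 mast cell markers. Inactive T cells gave 36.4 ± 47.1 CPM (SD, n = 7) from 22 UMIs in 16 of 1299 cells, at a median of 762 UMIs per cell, and 4 of the 22 lay in 1 cell with a mast cell profile. Blood endothelium gave 15.5 ± 29.5 CPM (SD, n = 6) from 9 UMIs in 3 of 265 cells. Proliferative T cells had 13 UMIs in 6 of 78 deep cells (7.69%, at a median of 5743 UMIs), and 2 mice had 20 or more of them. The exact binomial 95% interval of that share, 2.88 to 15.99, covers counting error only. Lymphatics, SMA-pos myofibroblasts, MSCs, ILC1-NK and memory T cells had 0 Il1rl1 UMIs, and the epithelium had 24 UMIs in 23787 cells. Neither gene was read in 74 ILC3, 42 glia, 33 dendritic cells or 32 neutrophils, numbers that allow shares of up to 4.05, 7.14, 9.09 and 9.38%. Below ILC2 and Tregs, no neighbours in the order differed by more than the spread within mice.

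**Figure D2:**
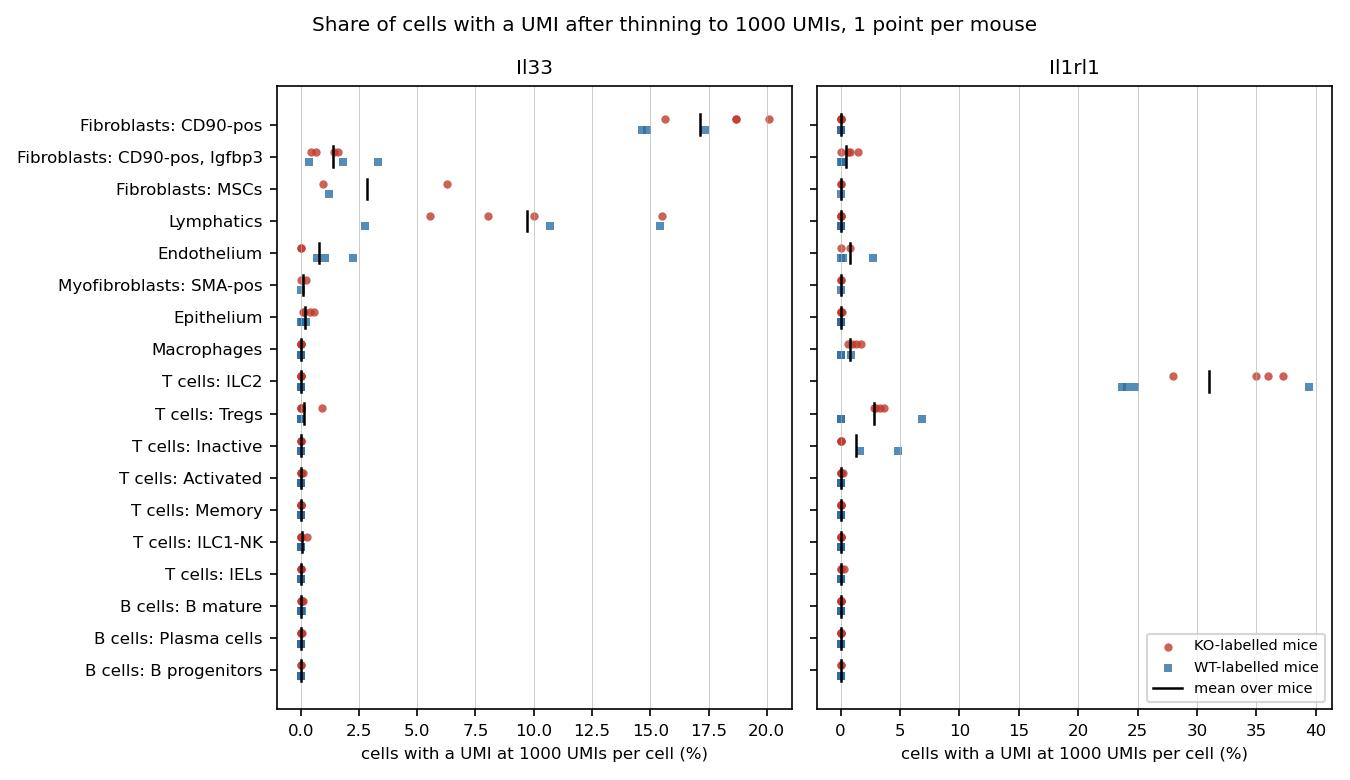
Share of cells with a UMI of Il33 (left) or Il1rl1 (right) after each cell was thinned to 1000 UMIs, in percent, with 1 point per mouse with 20 or more such cells and a bar at the mean over mice. At equal depth CD90-pos fibroblasts and lymphatics lead for Il33 and ILC2 for Il1rl1.

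Ligand and receptor were highest in different types. Across 25 types with a level, 0 had both genes at 10 CPM or more, and 2 cells in all held a UMI of both. The number of such cells expected by chance was not computed. Some types lay close to that cut. Blood endothelium had 8.99 CPM of Il33 and 15.5 CPM of Il1rl1, from 4 and 9 UMIs. CD90-pos, Igfbp3 fibroblasts had 14.2 and 6.60 CPM, with their Il1rl1 all in cluster 28, which held no Il33 UMI. Pearson's r of the 2 genes over the types was -0.07 and Spearman's rho 0.05, as a description over types that share libraries. The accessory chain Il1rap did not follow the receptor. It was highest in CD90-pos, Igfbp3 fibroblasts, at 27.5 ± 7.57 CPM (SD, n = 7), and was read at 5.67 ± 7.14 CPM (SD, n = 8) in ILC2, from 9 UMIs.

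Genes with the most similar pattern over the 25 types were ranked by Pearson correlation of log2(mean CPM + 1) among 13568 genes. For Il33 the first was Fndc1 (r = 0.94), followed by Zfp521, Fmo1, Flrt2, Zfp423, Ackr3, Fign, Tmod2, Obsl1 and Kcnn3. Fndc1 was at 1044 CPM in CD90-pos fibroblasts and 252 CPM in lymphatics. For Il1rl1 the first was Il4 (r = 0.83), followed by Ms4a2, Klrg1, Hdc, Ccr4, Ccr8, Cysltr1, Cpa3, Stab2 and Gm14718. Ms4a2, Hdc and Cpa3 are mast cell genes, and their part in the ranking from the few cells with that profile was not tested.

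The comparison of KO-labelled with WT-labelled mice asked whether the genotype of the epithelium went with a different level of ligand or receptor. No difference in either gene passed the threshold. Counts were summed per mouse in 18 classes and subtypes and tested with edgeR's quasi-likelihood test, with Benjamini-Hochberg adjustment over all genes. Il33 had enough counts in 4 sets and was called in 0, and Il1rl1 had enough in 2 and was called in 0.

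In CD90-pos fibroblasts the mean Il33 level of the KO-labelled mice was 208 ± 19.8 CPM and that of the WT-labelled mice 159 ± 41.3 CPM (SD, n = 4 each). The groups overlapped, and the log2 fold change was 0.28 ± 0.16 (SE, adjusted p = 0.999973 in edgeR). Without mouse 8 the WT-labelled mean was 179 ± 15.8 CPM (SD, n = 3) and the log2 fold change 0.23 ± 0.12 (SE). Of the 9843 genes tested in that subtype, 0% were called, with 209 at an unadjusted p under 0.05.

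Over all fibroblasts the 4 KO-labelled mice gave 184, 208, 109 and 117 CPM of Il33, and the WT-labelled mice 1, 4, 5 and 8 gave 185, 140, 86.9 and 34.0 CPM. The log2 fold change was 0.45 ± 0.39 (SE, edgeR adjusted p = 0.999984), and 0% of 11023 genes were called (197 at an unadjusted p under 0.05, 0 called by DESeq2). Without mouse 8 the change was 0.20. The share of the low-Il33 CD90-pos, Igfbp3 subtype moved with these levels: it was 3.78, 13.2, 49.8 and 87.2% of fibroblasts in WT-labelled mice 1, 4, 5 and 8, and 10.3, 9.34, 41.5 and 31.5% in KO-labelled mice 2, 3, 6 and 7. Its part in the difference over the whole class was not tested.

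The share of fibroblasts with an Il33 UMI, after thinning to 1000 UMIs, averaged 13.7 ± 4.10% over the KO-labelled mice and 9.86 ± 5.80% over the others (SD, n = 4 each, exact two-sided permutation p = 0.314, smallest possible 0.0286). Unthinned shares were 35.9 ± 11.8% and 26.9 ± 14.003%. In lymphatics Il33 was at 104 ± 42.1 CPM in KO-labelled mice (SD, n = 4) and 107 ± 84.8 CPM in WT-labelled mice (SD, n = 3), with a log2 fold change of -0.36 ± 0.40 (SE). In that class 0.146% of 3425 genes were called.

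The epithelium, where the Cre driver acts, held little Il33 but gave the largest log2 fold change among the 4 sets tested for it. Its 230 UMIs lay in 186 of 23787 cells (0.782%), against 0.0857% of mature B cells. The cells with Il33 were the deep ones, and after thinning to 1000 UMIs the shares were 0.144% of epithelial and 0.0318% of mature B cells. KO-labelled mice 2, 3, 6 and 7 gave 1.26, 2.31, 5.85 and 10.2 CPM, and WT-labelled mice 1, 4, 5 and 8 gave 0.498, 1.38, 3.30 and 0.798 CPM. Mice 6 and 7 were above every WT-labelled mouse, and mice 2 and 3 lay within their range. The state of the epithelium also differed between mice: cells with at least 50% mitochondrial UMIs made up 79.6, 69.0, 18.5 and 13.6% of it in mice 2, 3, 6 and 7, and 78.8, 53.5, 37.2 and 11.1% in mice 1, 4, 5 and 8. The authors' clusters 5 and 14 made up 6.46, 11.5, 38.9 and 44.1% in mice 2, 3, 6 and 7, and 10.4, 14.5, 39.04 and 58.99% in mice 1, 4, 5 and 8. In the KO-labelled mice the order of the Il33 levels was that of the cluster share and the reverse of the mitochondria-rich share, while mouse 8 had a low Il33 level beside the smallest share of mitochondria-rich cells. In cells under 50% mitochondrial UMIs the KO-labelled and WT-labelled means were 5.69 ± 4.03 and 1.89 ± 1.51 CPM (SD, n = 4 each), a log2 fold change of 1.51. Over all epithelial cells they were 4.90 ± 4.03 and 1.496 ± 1.26 CPM (SD, n = 4 each), the log2 fold change 1.55 ± 0.57 (SE) and edgeR's unadjusted p 0.0222, with an adjusted p of 0.99993. Of 11723 genes tested, 0% were called in edgeR and 0 by DESeq2, with 96 at an unadjusted p under 0.05 in edgeR. The log2 fold change was 1.09 without mouse 7 and 2.21 without mouse 5.

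The epithelial Il33 lay mostly in 3 of the authors' clusters. Clusters 5 and 14, whose most frequent name in the WT-labelled mice was stem-progenitor, held 119 and 78 of the 230 UMIs. Their levels were 3.29 and 4.46 CPM, against 2.60 CPM over all epithelial cells pooled. That name was given to 1942 of 2114 named cells in cluster 5 and to 414 of 1109 in cluster 14. Cluster 16 held 22 UMIs at a higher level of 12.0 CPM, in shallow cells with medians of 1037 UMIs and 0.265% mitochondrial UMIs. The authors named epithelial subtypes in the WT-labelled mice only, while the cluster levels cover both groups. Of these subtypes, stem-progenitor cells had 61 UMIs in 2378 cells (2.17 CPM), secretory-progenitor cells 7 in 409 (1.43 CPM) and enterocytes 1 in 2870 (0.109 CPM). Goblet cells, cells labelled DCS and tuft cells had 0, which allows levels of up to 2.40, 2.90 and 5.87 CPM and so shows no contrast with the progenitors. Epithelial cells with Il33 were much deeper than the rest, with medians of 14917 against 1728 UMIs, and had a median of 10.2% mitochondrial UMIs against 54.9%. In clusters 5 and 14 the KO-labelled mice averaged 6.52 ± 4.10 CPM and the WT-labelled mice 2.06 ± 1.49 CPM (SD, n = 4 each), a log2 fold change of 1.59 ± 0.51 (SE, edgeR adjusted p = 0.999901). With clusters 6 and 16 added, the choice tried first, the change was 1.51 ± 0.52 (SE). Both choices were made after seeing the data, and the names of clusters 6 and 16 rest on 7 and 16 named cells.

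Markers of fibroblasts were measured in the same cells. Of the 186 epithelial cells with Il33, 45 (24.2%) had a UMI of at least 1 of 7 fibroblast markers. The share was 6.50% among epithelial cells without Il33, which were much shallower. Of the Il33 UMIs, 163 lay in the 141 cells with Il33 and none of these markers. The markers' level in the epithelium was 0.113% to 0.415% of that in CD90-pos fibroblasts, depending on the mouse. Il33 at that same share would come to 0.138 to 0.956 CPM, and the measured level was 2.24 to 17.1 times as high. The lowest ratio, in mouse 1, rests on 4 Il33 UMIs. The share takes CD90-pos fibroblasts as the only source, and whether stromal RNA reached the epithelial cells was not tested. In cells without a fibroblast-marker UMI the log2 fold change was 1.78 ± 0.57 (SE, edgeR adjusted p = 0.999909).

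**Figure D3:**
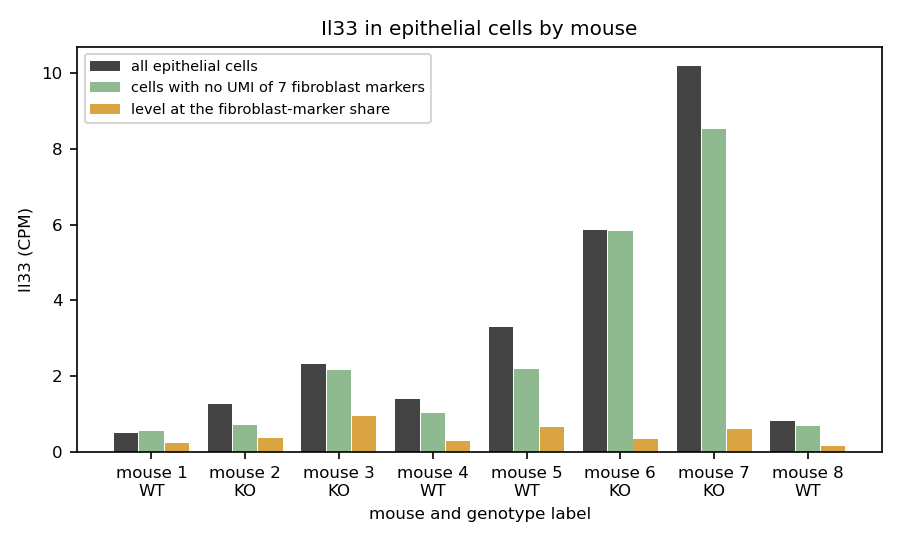
Il33 in the epithelium of each mouse, in CPM: all epithelial cells (dark bars), cells with no UMI of 7 fibroblast markers (green bars) and the level that the fibroblast-marker share would give (yellow bars). The dark bars are above the yellow bars in all 8 mice, and mice 6 and 7 are highest at 5.85 and 10.2 CPM.

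Whether the genotype went with a different change in epithelium than in fibroblasts was tested on the ratio within each mouse. With a prior of 1 CPM added to both levels, the log2 ratio of epithelial to fibroblast Il33 differed by 0.43 between the groups (n = 4 each, exact two-sided permutation p = 0.629). The prior is large beside the epithelial levels: with a prior of 0.1 CPM the difference was 0.88 (exact permutation p = 0.486). With the prior of 1 CPM it turned to -0.10 without mouse 1 and to -0.08 without mouse 7.

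In ILC2, the KO-labelled mice averaged 471 ± 109 CPM of Il1rl1 and the WT-labelled mice 369.8 ± 126 CPM (SD, n = 4 each). The groups overlapped, with WT-labelled mouse 5 at 542 CPM above 3 of the KO-labelled mice, and the log2 fold change was 0.30 ± 0.27 (SE, edgeR adjusted p = 0.999803). Without the 8 cells of mast cell profile it was 0.37 ± 0.26 (SE). Of 2162 genes tested in ILC2, 0% were called, with 94 at an unadjusted p under 0.05 and 0 called by DESeq2. After thinning, an Il1rl1 UMI was read in 34.04 ± 4.15% of KO-labelled and 27.98 ± 7.63% of WT-labelled ILC2 (SD, n = 4 each, exact two-sided permutation p = 0.257). Unthinned shares were 62.4 ± 5.37% and 54.5 ± 13.2%.

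In Tregs, Il1rl1 had too few counts for the model. The means were 65.5 ± 33.4 CPM for the KO-labelled mice (SD, n = 4) and 32.02 ± 55.5 CPM for the WT-labelled mice (SD, n = 3), a difference of 33.5 CPM (exact two-sided permutation p = 0.371). With mouse 8 and its 19 Tregs included, the difference was -13.6 CPM (exact permutation p = 0.857), so its direction rests on 1 mouse. Among all T cells Il1rl1 was at 63.9 ± 31.7 CPM and 51.7 ± 15.9 CPM (SD, n = 4 each), a log2 fold change of 0.29 ± 0.34 (SE), and 0% of 8706 genes were called (157 at an unadjusted p under 0.05).

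**Figure D4:**
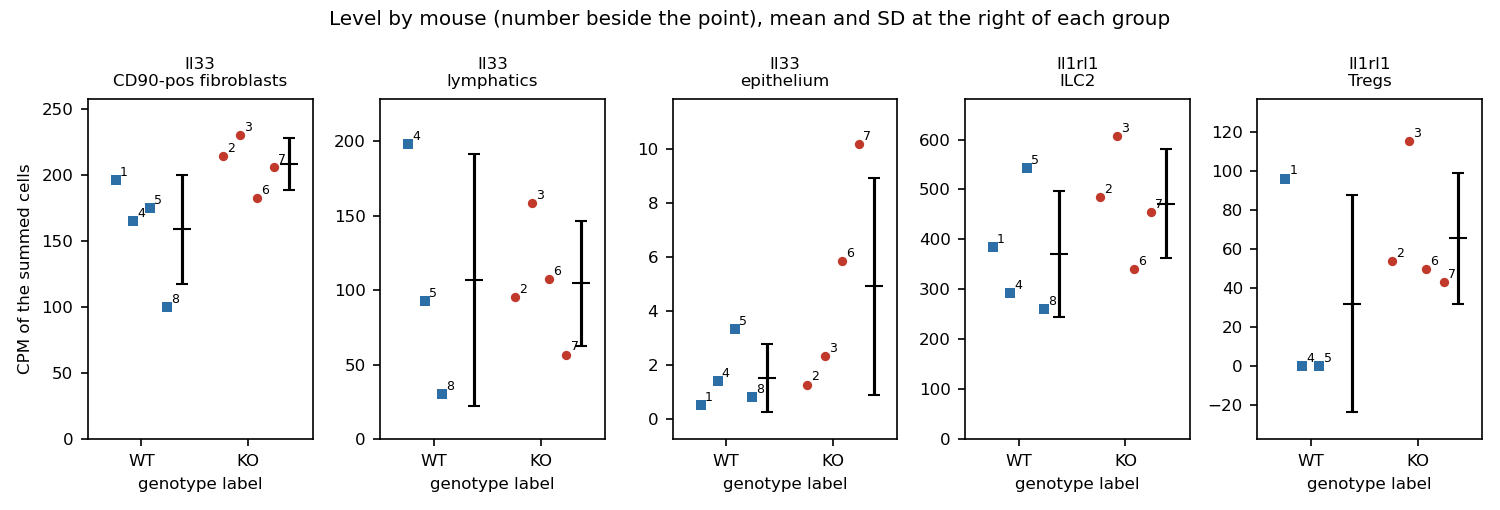
Level of Il33 in CD90-pos fibroblasts, lymphatics and epithelium and of Il1rl1 in ILC2 and Tregs, in CPM of the summed cells, with 1 numbered point per mouse with 20 or more cells and the mean with its SD at the right of each group. The groups overlap in all 5 panels.

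The pathway was read through a list of 38 genes, with Il33 and Il1rl1 among them. It held IL-1 family ligands and receptors, signalling proteins, partner cytokines, type 2 effectors, and proteases that can cut IL-33. In the epithelium 20 of them were tested and 0 called, 9 with a positive and 11 with a negative fold change, and a median of -0.02 against 0.00 for all genes. In fibroblasts 17 were tested and 0 called (8 positive, 9 negative), with a median of -0.01 against 0.01. In ILC2 9 were tested and 0 called (6 positive, 3 negative), with a median of 0.30 against 0.00. That median is the value of Il1rl1 itself, so it is no separate result. In Tregs 5 were tested and 0 called, where 0% of 2036 genes were called in edgeR (66 at an unadjusted p under 0.05) and 1 by DESeq2.

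Among the effectors of ILC2, Il13 averaged 978 ± 1057 CPM over the KO-labelled mice and 644 ± 218 CPM over the others (SD, n = 4 each), a spread larger than the difference. Areg was at 1419 ± 484 and 1185 ± 585 CPM, and Il5 at 281 ± 353 and 176 ± 79.2 CPM. Csf2, with the largest log2 fold change of the 9 listed genes tested there, was at 174 ± 133 and 93.3 ± 65.2 CPM. Its groups overlapped, and the change was 1.16 ± 0.53 (SE, edgeR unadjusted p = 0.0459, adjusted p = 0.999803). The factor Gata3 was at 790.3 ± 165 and 862 ± 176 CPM. In Tregs, Crlf2, a chain of the TSLP receptor, averaged 98.4 ± 17.0 CPM over the KO-labelled mice (SD, n = 4) and 149 ± 22.3 CPM over the others (SD, n = 3), with an edgeR log2 fold change of -0.56 ± 0.27 (SE). Its groups did not overlap, which held for 4.47% of all genes tested in Tregs, and it did not pass the adjusted threshold.

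In other types both genes had too few counts for the model, and the levels of those with the most UMIs follow, with blood endothelium. Il1rl1 in macrophages was at 30.98, 21.5, 9.20 and 10.3 CPM in KO-labelled mice 2, 3, 6 and 7, and at 0, 0 and 9.79 CPM in WT-labelled mice 1, 4 and 5. The groups overlapped, with mouse 5 above mouse 6. Il33 in CD90-pos, Igfbp3 fibroblasts averaged 10.98 ± 5.32 CPM (SD, n = 4) and 18.6 ± 13.97 CPM (SD, n = 3) in the same order of groups, and Il1rl1 there 9.90 ± 11.9 and 2.20 ± 2.16 CPM. In blood endothelium Il33 had 0 UMIs in KO-labelled mice 3, 6 and 7 and gave 15.0, 3.67 and 35.3 CPM in WT-labelled mice 4, 5 and 8, from 4 UMIs in all. The zeros allow up to 77.9, 28.6 and 16.1 CPM. Those groups did not overlap, which held for 9.59% of genes tested there. Il1rl1 in the same cells averaged 3.57 ± 6.19 and 27.5 ± 41.4 CPM (SD, n = 3 each), and in inactive T cells 23.1 ± 24.03 CPM (SD, n = 4) and 54.01 ± 70.4 CPM (SD, n = 3), with overlap in both.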

How the data were processed

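Distal colonic mucosa was digested and run on 10x Chromium 3′ libraries on 1 day as 1 batch, per the labels' protocols. Cell Ranger 3.0.2 and mm10 are listed in the submitters' processing notes. How the authors filtered, clustered and named cells is not stated there. The authors deposited UMI counts without normalization, 500 to 113660 per cell. The authors deposited a size factor per cell, a ratio of its total to the geometric mean of all totals, and UMAP coordinates, a score that was not used. Matrix columns follow the deposited cell table sorted by mouse and barcode: 53080 of 53080 size factors then matched (tolerance 1e-06), against 16 in file order.

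Counts were summed per mouse and authors' type, leaving out cells named as doublets, and given as CPM. Types with at least 20 cells per mouse and 3 mice per group were fitted in edgeR 4.0.16 (R 4.3.3) with TMM factors, filterByExpr and a quasi-likelihood test, threshold 0.05 after Benjamini-Hochberg adjustment. Epithelial subtypes were not fitted, since their names are empty in the KO-labelled mice. The model had been planned for Il1rl1 in Tregs too, but the gene did not pass the filter there, so a difference of CPM with an exact permutation test over mice is given. Shares of cells used cells thinned to 1000 UMIs, and limits for a count of 0 used 3 counts. Scripts were tested on simulated data. Alternatives were DESeq2 1.42.0, upper-quartile factors, no count filter, cells under 50% mitochondrial UMIs, thinning to 2000 UMIs, a prior of 0.1 in place of 1 CPM in the epithelial to fibroblast ratio, and each mouse left out. Each mouse is 1 library.

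The genes, lists and tests were chosen with earlier results of these data known. Named were Il33 and Il1rl1 in every type, the 38-gene pathway list, Spry2, and for each of the 2 genes the 10 most correlated over types among genes of at least 10 CPM in 1 type. Crlf2 in Tregs, Csf2 in ILC2 and the Treg, macrophage and cluster 28 markers were singled out after their values were seen. 1 listed gene is not reported here.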

Additional observations from a re-analysis of the deposited data

Results flagged for a closer look

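Il1rl1 in the Tregs of KO-labelled mouse 3 stood at 115 CPM, far from the other 3 mice of its group at 43.2 to 54.0 CPM. Its 12 UMIs lay in 1 of 34 cells. Of 12 groups examined this way 1 stood out, and chance alone marks about 1 group in 20.

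Cells that the authors named as doublets, which entered no comparison, held 421 UMIs of Il33 (9.47% of all) and 54 UMIs of Il1rl1 (5.76%). Most of the Il33 was in fibroblast doublets, with 182 UMIs in those with macrophages and 124 in those with epithelium. For Il1rl1, 30 UMIs were in T cell doublets with macrophages.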

How the results depend on the processing

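The levels of Il1rl1 rest on 20 to 178 ILC2 per mouse and on 62 UMIs in all Tregs, and those of Il33 in mouse 8 on 21 CD90-pos fibroblasts. The log2 fold changes of Il33 in fibroblasts (0.20 to 0.73 with each mouse left out) and epithelium (1.09 to 2.21), and of Il1rl1 in ILC2 (0.18 to 0.57), kept their sign and stayed short of the adjusted threshold in all alternatives run. The Treg difference of Il1rl1 was 16.9 to 65.5 CPM with each mouse left out and -13.6 CPM with mouse 8 added, an alternative chosen after seeing the data. The thinned Treg share differed by 0.856 percentage points, and by -0.291 without mouse 4 or without mouse 5 (range -0.291 to 3.15). The log2 ratio of epithelial to fibroblast Il33 was -0.0974 without mouse 1 and -0.0808 without mouse 7 (range -0.0974 to 0.904), and 0.882 with a prior of 0.1 CPM in place of 1. Genes called in ILC2 numbered 33 with no filter on low counts and 0 to 1 with each mouse left out (1 without mouse 4). In Tregs they numbered 1 with DESeq2, 13 with no filter and 0 to 2 with each mouse left out (1 without mouse 5, 2 without mouse 6). The cause was not tested. Without the filter, edgeR gave a log2 fold change of 0.82 ± 0.50 (SE) for Il1rl1 in Tregs, adjusted p = 0.866. The choices of cells by marker, cluster or subtype were made after seeing the data and changed no call. No paired analysis was run, since each mouse belongs to 1 group and the mouse numbers give no pairs. The CD90-pos, Igfbp3 share of fibroblasts was 3.78 to 13.2% in mice 1, 2, 3 and 4. It was 31.5 to 87.2% in mice 5, 6, 7 and 8, and both sets held KO-labelled and WT-labelled mice. A model with this split was not run, so its bearing on the comparisons was not tested.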
